A study of Mus musculus with 12 samples.

Results

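SR proteins are splicing factors that carry RNA recognition motifs and a tail rich in arginine and serine dipeptides. They bind exonic enhancers in pre-mRNA and help the spliceosome to choose exons. Their activity depends on phosphorylation of that tail: the Srpk kinases act mainly in the cytoplasm and license nuclear import, and the Clk kinases act in the nucleus and release SR proteins from speckles. In the mouse embryo the transition from maternal to zygotic transcripts takes place around the 2-cell stage, and the mRNAs of these factors can be of either origin.

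The transcripts described are those of 10 genes: the SR proteins Srsf1 to Srsf7 and the kinases Srpk1, Srpk2 and Clk1. They were chosen by name, with earlier results of these data known. Every probe set of the array whose annotation gives 1 of these symbols was taken. This found 32 probe sets for 9 of the 10 genes, out of 18163 genes named on the array. No probe set used here was named for Srsf7, so it was not analysed. The brightest probe set, by its mean log2 level over the 12 arrays, stands for the gene, and the others serve as a check. Of the 32 probe sets, 30 belonged to the brighter part of the array (the upper 22468 probe sets by mean level).

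Embryos of all 4 groups were arrayed at the mid-2-cell stage. The mothers were F1 (C57BL6xDBA/2) mice, wild type and 3 to 5 weeks of age, in which gonadotropins (from pregnant mare's serum, then human chorionic) had induced superovulation, and the fathers were wild type too. At the 1-cell stage the embryos received a cytoplasmic injection of Oct4-MO or of Ccna2-MO, antisense morpholino oligonucleotides (MO) that block translation of the Oct4 or the cyclin A2 mRNA, each at 0.6 mM in the labels (the study's text gives a higher dose for Ccna2-MO). Each experiment had its own uninjected embryos, taken from the same collection and cultured alongside, and each of the 4 groups had 3 arrays. RNA of 20 pooled embryos was extracted per array, and an amount equal to 10 embryos went through 2 rounds of amplification. No array held embryos injected with a control MO, so the effect of the injection cannot be told apart from that of the MO. Ccna2-MO embryos arrest at the 2-cell stage. A pool gives the mean over its embryos, so fewer cells with a transcript and less transcript per cell cannot be told apart.

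Values are intensities on a linear scale. The array medians ran from 22.7 to 25.47, and 39.3 to 42.7% of the probe sets of an array lay under 16. Fold changes are log2(value + 16) differences from limma, which understate the change of dim probe sets. The p-values were adjusted over 44937 probe sets, and a call is an adjusted p under 0.05. All 7 measured maternal markers of 8 listed were above 16 on every array, with a summed level of 13339 to 16900. Zar1, an oocyte factor, was the only one of them called, 2.19 higher on the log2 scale in Ccna2-MO embryos (adjusted p = 0.0328). It was 1.85 higher in Oct4-MO embryos, reading 308.7, 302.4 and 296.8 against 96.91, 62.32 and 61.6 in their controls (adjusted p = 0.123). The part of this in the results was not tested. None of the 7 measured cumulus cell markers of 8 listed was above 16 on every array, and 1 was under 16 on every array. Their summed level was 44.4 to 168.7. The highest single readings were 71.55 for Foxl2, on an uninjected array of the Ccna2 experiment, and 67.45 for Amh, on an Oct4-MO array. As an MO need not lower the mRNA it covers, the level of the targeted transcripts does not test the knockdown. Pou5f1, which encodes Oct4, was 0.18 higher in Oct4-MO embryos (adjusted p = 0.769), and the log2 fold change of Ccna2 in Ccna2-MO embryos was -0.12 (adjusted p = 0.762).

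Among the measured genes, 2 were called, both in Ccna2-MO embryos: Srpk2 rose and Srsf1 fell. They are 2 of 9 measured members, beside 0.93% of all genes called in that comparison. None of the 9 was called in Oct4-MO embryos, where 0.0936% of all genes were called. By limma's unadjusted p under 0.05, 3 members passed in Oct4-MO embryos (Srpk2 higher, Srsf1 and Srsf5 lower), beside 10.6% of all genes. The same 3 names passed with the same signs in Ccna2-MO embryos, beside 16.7%. Of the 11417 genes in the brighter part, 622 passed higher and 986 lower in Oct4-MO embryos. In Ccna2-MO embryos 1217 of them passed higher and 1357 lower. The median log2 fold change of the 9 members was -0.07 in Oct4-MO embryos (0.01 over all genes) and 0.02 in Ccna2-MO embryos (0.03 over all genes). These medians are over members with changes of both signs.

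**Figure D1:**
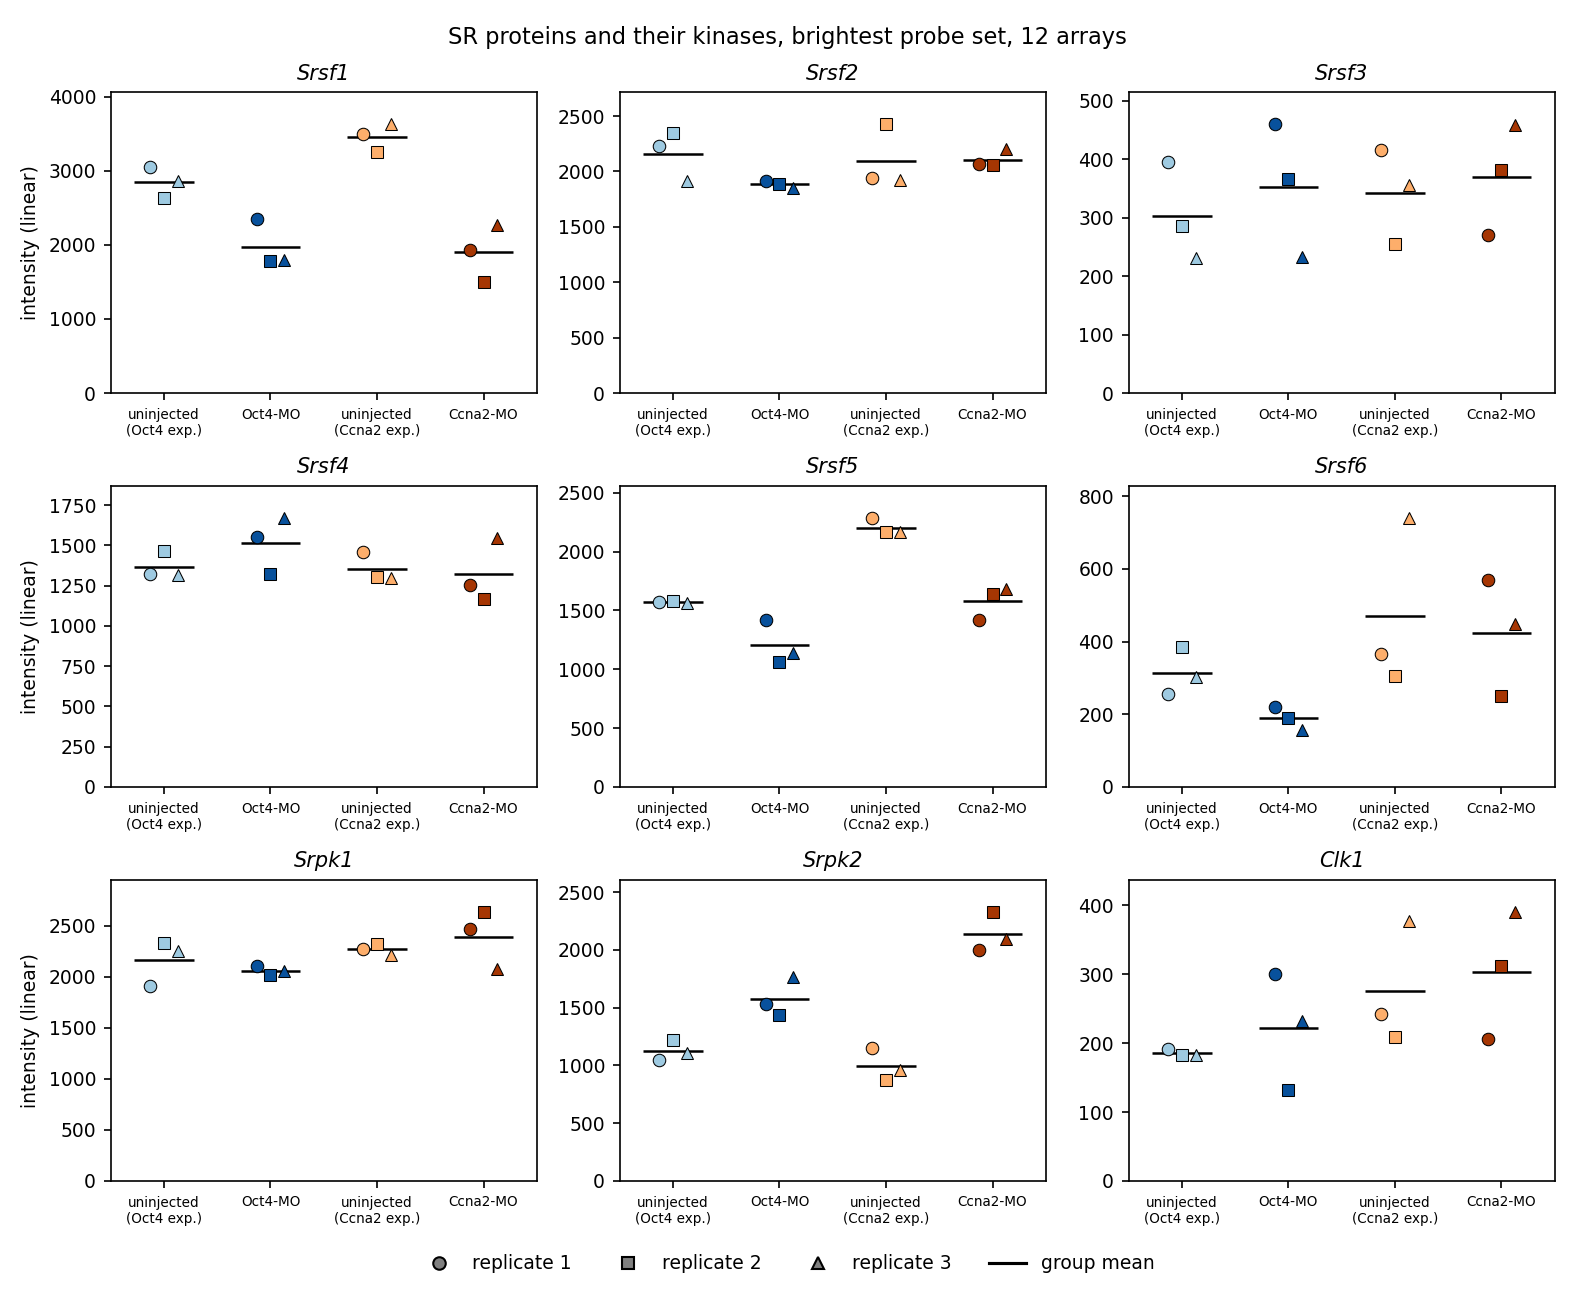
Intensity (linear scale, starting at 0) of the brightest probe set of each of the 9 measured genes on the 12 arrays. Points are arrays, their shapes are the replicate numbers that pair an injected pool with its uninjected pool, and lines are group means. In the Srpk2 panel all 6 injected arrays lie above all 6 uninjected arrays, and in the Srsf1 panel all 6 lie below. Brightness is not comparable between panels.

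Srpk2, a cytoplasmic kinase that phosphorylates the arginine and serine rich tail of SR proteins, had the smallest p of the list in Ccna2-MO embryos. In Ccna2-MO embryos its brightest probe set read 2000, 2326 and 2092, against 1149, 875.2 and 960.9 in their uninjected embryos. Each injected array was thus above each uninjected one. Srpk2 rose by 1.10 on the log2 scale (standard error, SE, 0.14; adjusted p = 0.0103), from 995 ± 140 to 2139 ± 168 (mean ± SD, n = 3 each). With the pair of pools as a block the adjusted p was 0.0447.

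In Oct4-MO embryos the same probe set read 1534, 1434 and 1763, against 1043, 1218 and 1110 in the uninjected embryos of that experiment. The groups did not overlap, and the log2 fold change was 0.48 (SE 0.14), but it was not called (adjusted p = 0.26). The change in Ccna2-MO embryos exceeded that in Oct4-MO embryos by 0.62 on the log2 scale, with a 95% interval of 0.19 to 1.05. This difference was not called either (unadjusted p = 0.00823, adjusted p = 0.641). No gene on the array was called for a difference between the knockdowns (0% of 18163), and 7.11% had an unadjusted p under 0.05. Of the 9 members, Srpk2 was the only one among these.

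The group means of Srpk2 ran, from high to low, Ccna2-MO, Oct4-MO, uninjected embryos of the Oct4 experiment, uninjected embryos of the Ccna2 experiment. Neighbouring uninjected groups overlapped and differed by -0.18 on the log2 scale (adjusted p = 0.672), whereas no Ccna2-MO array was as low as the highest Oct4-MO array. Srpk2 has 6 probe sets. In Ccna2-MO embryos the 5 in the brighter part of the array lay above their uninjected arrays without overlap, with log2 fold changes of 0.69 to 1.10, and the sixth, at 9.04 to 35.83 on all arrays, had -0.02. Only the brightest of them was called. The next lowest adjusted p was 0.0843, for 1435746_at, which read 903.5, 738 and 1000.2 in Ccna2-MO and 369, 647.4 and 449.8 in uninjected embryos. In Oct4-MO embryos 3 of the 6 lay above their controls without overlap, and the log2 fold changes of the 5 brighter ones were 0.25 to 0.64. The 5 probe sets read the same RNA and are no replicates of the condition.

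The call for Srpk2 in Ccna2-MO embryos held without each of the 12 arrays in turn, with log2 fold changes of 1.01 to 1.21 and adjusted p of 0.0127 to 0.0415. It was lost when only the 6 arrays of the comparison entered the fit (adjusted p = 0.152) and with the plain unpaired statistic that the study's methods name (0.33).

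Srsf1, the founding SR protein, which binds exonic enhancers and acts in splicing, mRNA export and translation, was lower in both injected groups. Its brightest probe set read 1926, 1496 and 2274 in Ccna2-MO embryos and 3492, 3251 and 3629 in their uninjected embryos. The highest injected array was below the lowest uninjected one. Srsf1 fell by 0.88 on the log2 scale (SE 0.15, adjusted p = 0.0307), from 3457 ± 191 to 1899 ± 390 (mean ± SD, n = 3 each), and the adjusted p was 0.0405 with the pair as a block.

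In Oct4-MO embryos the same probe set of Srsf1 read 2351, 1787 and 1797, against 3053, 2627 and 2865 in uninjected embryos. The groups were again apart, with a log2 fold change of -0.53 (SE 0.15) that was not called (adjusted p = 0.249). It was called, at -0.67 (adjusted p = 0.0452), when all 6 uninjected arrays served as controls. These include the uninjected arrays of the Ccna2 experiment, which read higher for Srsf1 than those of the Oct4 experiment. The change in Ccna2-MO embryos differed from that in Oct4-MO embryos by -0.35 on the log2 scale, with a 95% interval of -0.81 to 0.12 (adjusted p = 0.802). From high to low, the group means of Srsf1 were in the order uninjected embryos of the Ccna2 experiment, uninjected embryos of the Oct4 experiment, Oct4-MO, Ccna2-MO. The 3 Oct4-MO arrays overlapped with the 3 Ccna2-MO arrays. The uninjected groups did not overlap, and the log2 difference of 0.28 between them was not called (adjusted p = 0.509).

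Srsf1 has 7 probe sets, all in the brighter part of the array. Relative to each other they fell into a bright and a dim kind. The 5 bright ones were lower without overlap in both injected groups, with log2 fold changes of -0.58 to -0.39 in Oct4-MO embryos and -1.03 to -0.51 in Ccna2-MO ones. The 5 read the same RNA and are no replicates of the condition, so their calls are not independent. In Ccna2-MO embryos 4 of these 5 were called, beside 0.748% of all probe sets on the array. None was called in Oct4-MO embryos (0.0734% of all probe sets). With the pair as a block, 3 of those called in Ccna2-MO embryos, all but the brightest, were no longer called. Their adjusted p was 0.0554 for 1434972_x_at, 0.0616 for 1428099_a_at and 0.0739 for 1430982_at. The fifth, 1452430_s_at, read 2227, 1870 and 2482 in Ccna2-MO and 3149, 2943 and 3231 in uninjected embryos (log2 fold change -0.51, adjusted p = 0.126). The 2 dim ones went the other way in Ccna2-MO embryos, at 0.24 for 1457136_at and 0.56 for 1428100_at, with overlapping groups. On all 12 arrays 1457136_at read between 48.76 and 109.83, and 1428100_at between 14.16 and 105.94. The suffixes _s_at and _x_at mark probe sets whose probes can match more than 1 transcript, so signal from related sequences cannot be told apart in these.

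The call for Srsf1 in Ccna2-MO embryos depended on which arrays entered the fit. Without 1 array at a time the log2 fold change was -1.02 to -0.72, with 6 of the 12 fits keeping the call and 6 losing it. The latter left out uninjected replicate 1, 2 or 3 of the Ccna2 experiment (adjusted p = 0.118, 0.0605 and 0.0941), Ccna2-MO replicate 2 (0.0845), or uninjected replicate 1 or 3 of the Oct4 experiment (0.0507 and 0.0523). The mean of all 7 probe sets was -0.46 (adjusted p = 0.174).

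**Figure D2:**
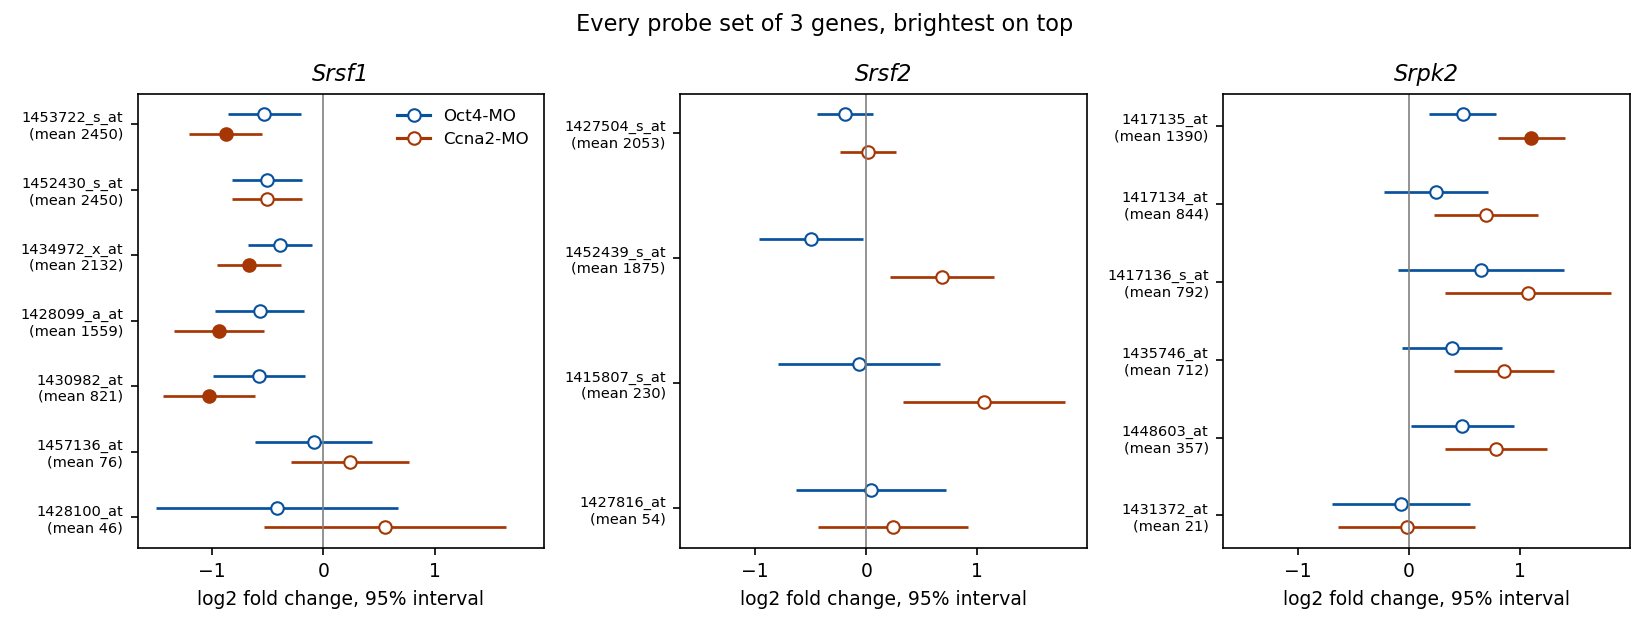
Log2 fold change of every probe set of Srsf1 (7), Srsf2 (4) and Srpk2 (6) in Oct4-MO (blue) and Ccna2-MO embryos (brown), each against its own uninjected group, with 95% intervals and the average level over the 12 arrays (back-transformed from the log2 scale) under each name. Filled points have an adjusted p under 0.05. The 5 bright Srsf1 probe sets lie left of 0 and the 5 bright Srpk2 probe sets right of 0 in both knockdowns, while those of Srsf2 range from 0.02 to 1.06 in Ccna2-MO embryos and lie on both sides of 0 in Oct4-MO embryos.

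Srsf5, an SR protein that shuttles between nucleus and cytoplasm, had lower readings in both injected groups, and neither difference was called. Its only probe set read 1421, 1638 and 1683 in Ccna2-MO embryos and 2284, 2167 and 2163 in their uninjected embryos, a log2 fold change of -0.48 (SE 0.13, adjusted p = 0.103). In Oct4-MO embryos it read 1419, 1064 and 1137, against 1568, 1576 and 1565 in uninjected embryos, a log2 fold change of -0.39 (SE 0.13, adjusted p = 0.324). The groups were apart in both comparisons. The uninjected embryos themselves differed about as much: those of the Ccna2 experiment were 0.49 above those of the Oct4 experiment, without overlap (adjusted p = 0.178). As a result the Ccna2-MO arrays lay around the level of the uninjected embryos of the Oct4 experiment.

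A difference between the uninjected groups cancels in a comparison with own controls only where the injected pools share it. A difference confined to the uninjected pools would enter that comparison. Which of these holds was not tested. Between the uninjected groups 3 of the 9 members were apart, Srsf1, Srsf5 and Clk1, all higher in the Ccna2 experiment. Of all genes 10.4% were higher there and 12.3% lower without overlap. None of the 9 was called (0.116% of all genes), and by unadjusted p under 0.05 only Srsf5 passed, beside 12% of all genes. Comparisons of an injected group with the other experiment's controls would include this difference.

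Srsf6, which also regulates exon choice through enhancers, was the third member below its controls without overlap in Oct4-MO embryos. It read 220.8, 188.4 and 156.7 there, against 256.6, 383.8 and 302.5 in uninjected embryos, a log2 fold change of -0.69 (SE 0.36, adjusted p = 0.616). In Ccna2-MO embryos its arrays, at 569.1, 249.5 and 448.9, overlapped with those of the uninjected embryos at 364.8, 304.6 and 739.6. The log2 fold change there was -0.12 (adjusted p = 0.928). All 4 of its probe sets had log2 fold changes below 0 in Oct4-MO embryos, from -1.01 to -0.07. Only the brightest was apart from its controls there, and the others overlapped. For 1447898_s_at, Oct4-MO replicate 1 read 284.54, above all its controls at 154.49 to 197.44. In Ccna2-MO embryos 2 of the 4 lay above and 2 below 0.

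Counted over the brightest probe sets, 4 of the 9 members were apart from their controls in Oct4-MO embryos: Srpk2 higher (9.21% of all genes were higher without overlap) and Srsf1, Srsf5 and Srsf6 lower (9.57%). In Ccna2-MO embryos 3 of the 9 were apart, Srpk2 higher (9.89%) and Srsf1 and Srsf5 lower (9.29%).

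**Figure D3:**
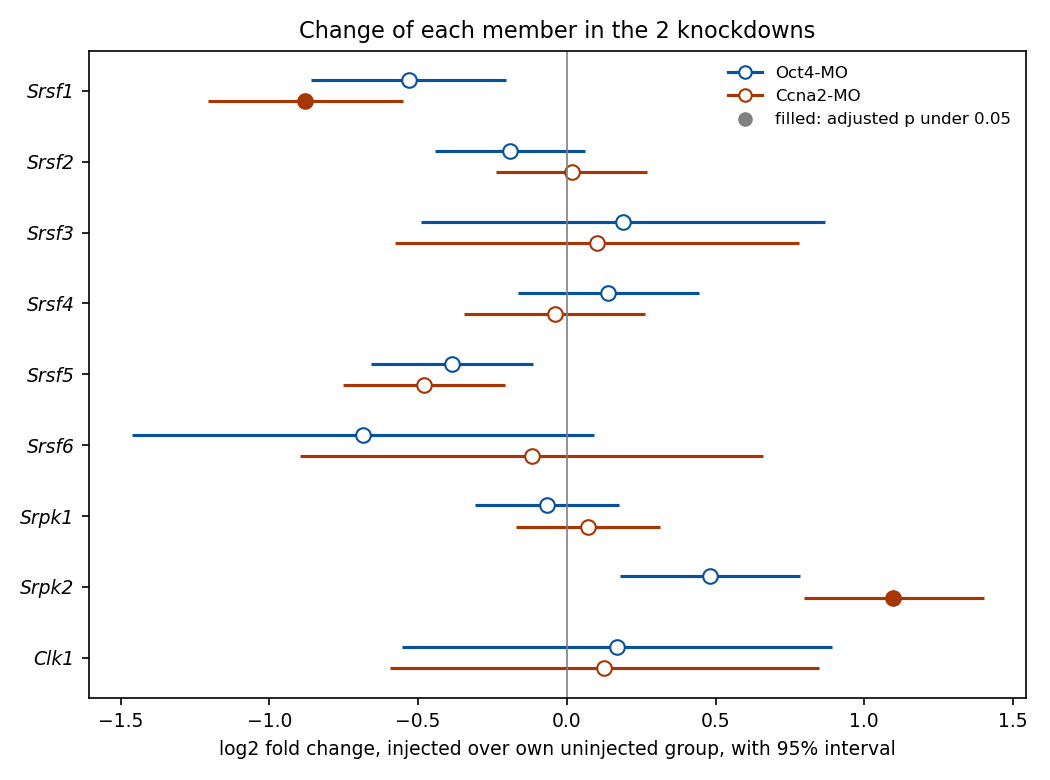
Log2 fold change with its 95% interval for the brightest probe set of the 9 measured genes, in Oct4-MO (blue) and Ccna2-MO embryos (brown) against their own uninjected groups. Filled points, at 1.10 for Srpk2 and -0.88 for Srsf1 in Ccna2-MO embryos, have an adjusted p under 0.05, and the intervals of Srsf3, Srsf6 and Clk1 are wide.

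Srsf2, an SR protein that stays in the nucleus, differed in the size of its change by probe set. The brightest, 1427504_s_at, read 2066, 2053 and 2200 in Ccna2-MO and 1936, 2426 and 1922 in uninjected embryos. Its log2 fold change was 0.02, with a 95% interval of -0.24 to 0.27, and in Oct4-MO embryos it was -0.19 (adjusted p = 0.688). The next brightest, 1452439_s_at, read 2815, 2359 and 3978 in Ccna2-MO embryos against 1631, 2150 and 1823 in uninjected ones, all 3 above (log2 fold change 0.68, adjusted p = 0.17). In Oct4-MO embryos the same probe set was at -0.50 (adjusted p = 0.508), and the 2 knockdowns differed by 1.18 (unadjusted p = 0.00214, adjusted p = 0.573). Another, 1415807_s_at, also lay above its controls in Ccna2-MO embryos, at 375.6, 346.7 and 742.2 against 141.9, 248.1 and 270.9 (log2 fold change 1.06, adjusted p = 0.168). The dimmest of the 4, 1427816_at, was at 0.24 in Ccna2-MO and 0.04 in Oct4-MO embryos, with overlap. In Ccna2-MO embryos the 4 probe sets of Srsf2 thus all lay above 0 and differed in size, from 0.02 to 1.06, whereas in Oct4-MO embryos 3 lay below 0 and 1 above. None of the 4 was called in either knockdown.

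Srsf3, the smallest SR protein, also had a split among its 6 probe sets. The brightest overlapped between groups in both comparisons, at 231 to 394.8 in the uninjected embryos of the Oct4 experiment and 232.5 to 460.1 in Oct4-MO embryos, and at 255.6 to 416.4 in those of the Ccna2 experiment and 269.7 to 459.4 in Ccna2-MO embryos. Its log2 fold changes were 0.19 (adjusted p = 0.932) and 0.10 (adjusted p = 0.927). Another, 1438215_at, was higher without overlap in both injected groups. It read 120.4, 112.7 and 176.7 in Oct4-MO embryos against 71.13, 86.88 and 107.1, a log2 fold change of 0.54 (adjusted p = 0.588). In Ccna2-MO embryos it read 255.5, 236.4 and 199.7 against 161.5, 138.1 and 109.5, a log2 fold change of 0.70 (adjusted p = 0.256). The other 4 overlapped, and 1416151_at was at 1.08 to 12.65 on all arrays.

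Srsf4, a larger SR protein, and Srpk1, the kinase closest to Srpk2, overlapped with their controls in both comparisons. For Srsf4 the log2 fold change was 0.14 in Oct4-MO (adjusted p = 0.851) and -0.04 in Ccna2-MO embryos (adjusted p = 0.937), with readings of 1166 to 1669 on all 12 arrays. For Srpk1 it was -0.07 in Oct4-MO embryos, with a 95% interval of -0.31 to 0.18, and 0.07 in Ccna2-MO embryos, with an interval of -0.17 to 0.31. The second probe set of Srpk1 gave -0.22 and 0.24. In Ccna2-MO embryos the interval of Srpk1 therefore ended below that of Srpk2, which began at 0.80.

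Clk1, the nuclear kinase of the list, overlapped with its controls in both comparisons. Its SD was 4.836 in the uninjected embryos of the Oct4 experiment and 84.14 to 92.48 in the other groups. It read 299.8, 132.5 and 231.9 in Oct4-MO embryos and 191.3, 183.4 and 182.5 in their controls (log2 fold change 0.17, adjusted p = 0.946). In Ccna2-MO embryos it read 206, 312.5 and 390.2 against 241.8, 208.4 and 378 (log2 fold change 0.13, adjusted p = 0.915).

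By role, the 6 measured SR proteins had a median log2 fold change of -0.29 in Oct4-MO embryos and -0.08 in Ccna2-MO ones, with 4 of 6 below 0 in each. The 3 kinases had medians of 0.17 and 0.13. Over all genes the medians were 0.01 and 0.03.

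The genes whose brightest probe sets followed a called member most closely over the 12 arrays, among 11416 other genes in the brighter part of the array, were Esf1, Tsc22d2 and Ebna1bp2 for Srsf1, with Pearson correlations of 0.975, 0.974 and 0.97. For Srpk2 they were Gyg, Lhx8 and Mthfd2, at 0.96, 0.957 and 0.955. These points share their arrays, their normalization and the 4 groups, and the correlations are descriptions of them.

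A wider list of 41 genes of SR protein biology was measured in full: 4 other SR proteins, 18 SR-related proteins, 6 other kinases, 4 phosphatase genes, 2 nuclear transport receptors and 7 hnRNPs, which often oppose SR proteins at splice sites. In Ccna2-MO embryos 2 of the 41 were called, both lower, beside 0.93% of all genes, and in Oct4-MO embryos none was. By unadjusted p under 0.05, 1 was higher and 9 were lower in Oct4-MO embryos, beside 4.66% of all genes higher and 5.96% lower. In Ccna2-MO embryos 2 were higher and 8 lower, beside 8.22% and 8.5% of all genes. The brighter part of the array holds 39 of the 41. Of its 11417 genes, 622 passed higher and 986 lower in Oct4-MO embryos. In Ccna2-MO embryos 1217 of these genes passed higher and 1357 lower, and 78 were called higher and 84 lower. The median log2 fold change of the 41 was -0.19 in Oct4-MO embryos, with 30 below 0, and -0.08 in Ccna2-MO embryos, with 24 below 0. These are 73.2% and 58.5% of the list. Over all genes in the brighter part of the array, the medians were -0.02 and 0.02, and 51.8% and 48.4% lay below 0.

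Luc7l3, an SR-related protein linked to 5′ splice site choice, fell in Ccna2-MO embryos. It read 2203, 1908 and 2148 there and 3338, 3160 and 3010 in their uninjected embryos, a log2 fold change of -0.60 (SE 0.10, adjusted p = 0.0308, and 0.047 with the pair as a block). In Oct4-MO embryos it was at -0.45 without overlap (adjusted p = 0.144). Its call in Ccna2-MO embryos was lost without uninjected replicate 1, 2 or 3 of that experiment (adjusted p = 0.12, 0.0668 and 0.0658), without Ccna2-MO replicate 2 (0.0916) and without uninjected replicate 3 of the Oct4 experiment (0.0556). Over the mean of its probe sets the value was -0.23 (adjusted p = 0.55).

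Hnrnpa2b1, an hnRNP that binds RNA in splicing and transport, also fell in Ccna2-MO embryos. It read 2329, 2357 and 2365 there and 3626, 2992 and 3309 in uninjected embryos, a log2 fold change of -0.49 (SE 0.10, adjusted p = 0.0438). This call was lost with the pair as a block (adjusted p = 0.0645) and without any 1 array other than Oct4-MO replicate 1, with adjusted p of up to 0.162. Over the mean of its probe sets the value was -0.18 (adjusted p = 0.583). In Oct4-MO embryos it was at -0.31 without overlap (adjusted p = 0.31).

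None of the others passed. Tnpo3, the import receptor that carries phosphorylated SR proteins into the nucleus, read 498.7, 536.4 and 322.9 in Oct4-MO embryos and 1055, 938.1 and 988.3 in their uninjected embryos, all 3 below. Its log2 fold change of -1.14 (SE 0.23) had an adjusted p of 0.108, and in Ccna2-MO embryos it was -0.47 with overlap (adjusted p = 0.385). Scaf4, an SR-related protein that binds RNA polymerase II, was apart from its controls in both, at -0.59 in Oct4-MO (adjusted p = 0.0654) and -0.41 in Ccna2-MO embryos (adjusted p = 0.0895). Its uninjected groups differed by 0.55 (adjusted p = 0.0832). Srsf10, an SR protein that acts as a splicing repressor when dephosphorylated, read 2250, 1980 and 1833 in Oct4-MO embryos against 2878, 2468 and 3105, a log2 fold change of -0.47 (adjusted p = 0.135), and was at -0.05 with overlap in Ccna2-MO embryos. The difference between its changes was 0.43, with a 95% interval of 0.10 to 0.75 (adjusted p = 0.67). Srsf11 read 185.4, 321.3 and 462.1 in Ccna2-MO embryos against 734.4, 628.1 and 731.3, a log2 fold change of -1.16 (SE 0.27, adjusted p = 0.0762), and was at -0.34 without overlap in Oct4-MO embryos (adjusted p = 0.793). Without Ccna2-MO replicate 3 its value in Ccna2-MO embryos was -1.45 and was called (adjusted p = 0.0253). Leaving out any other 1 array gave no call, and without Ccna2-MO replicate 1 the value was -0.83 (adjusted p = 0.113). Over the mean of its probe sets the value was -0.35 (adjusted p = 0.46).

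**Figure D4:**
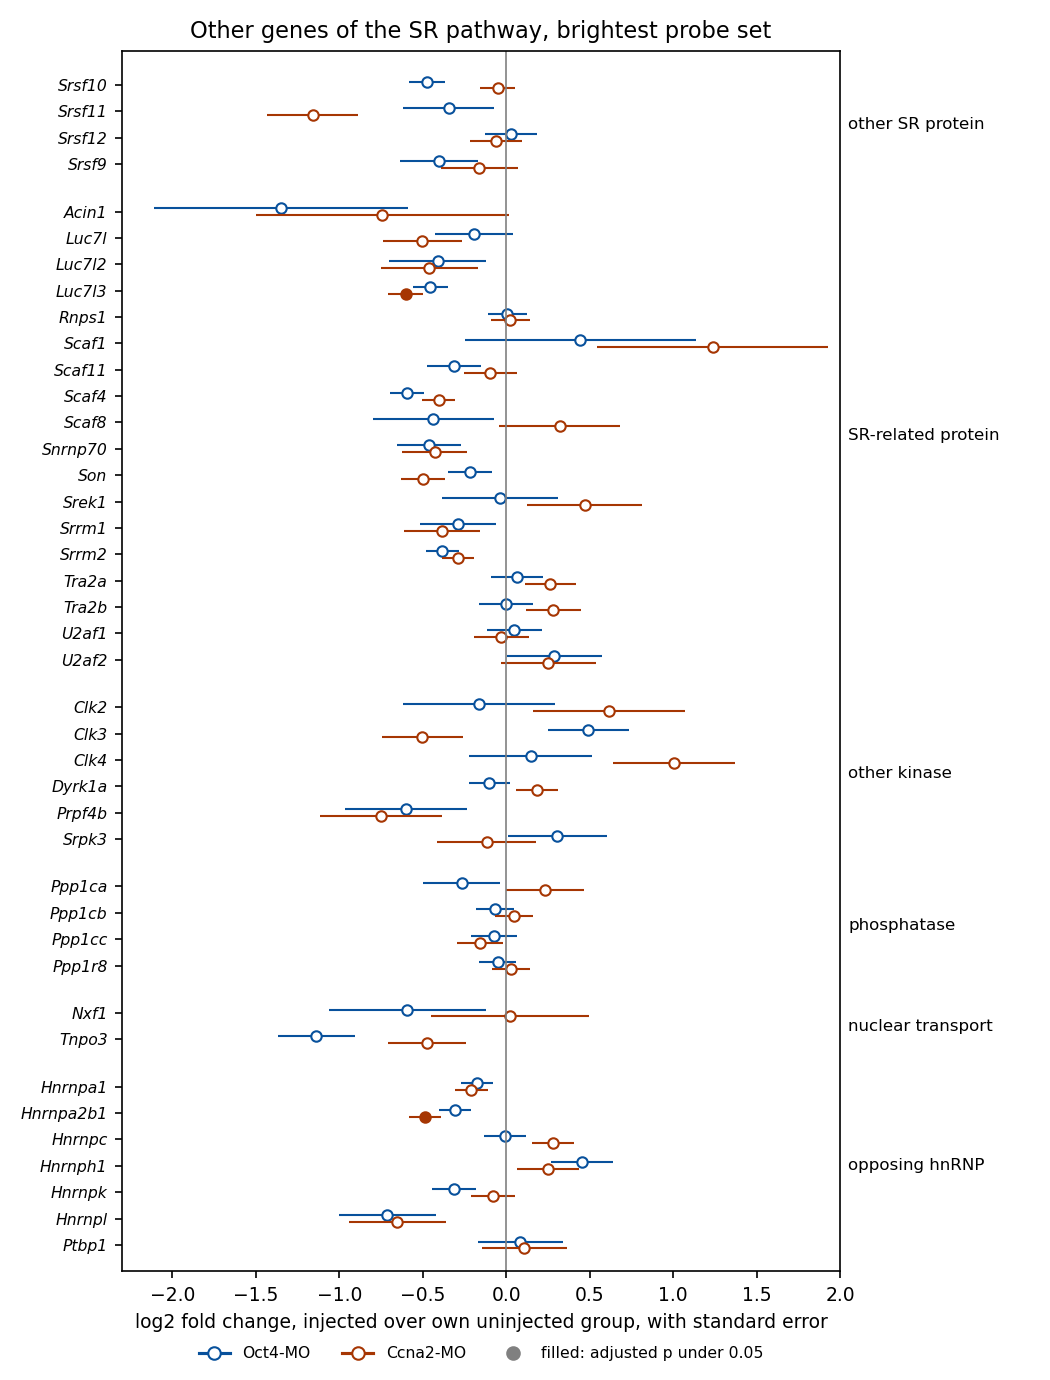
Log2 fold change, with its SE, of the brightest probe set of 41 other genes of SR protein biology in Oct4-MO (blue) and Ccna2-MO embryos (brown), each against its own uninjected group, arranged by role. Filled points, Luc7l3 at -0.60 and Hnrnpa2b1 at -0.49 in Ccna2-MO embryos, have an adjusted p under 0.05.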

How the data were processed

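The authors normalized 12 Affymetrix Mouse 430 2.0 arrays with dChip and deposited 1 intensity per probe set. The dChip version and model options: not given in the sources used here. Of 45001 probe sets, 64 controls were left out. The platform annotation names 34849 with 1 gene symbol, 928 with several (not used for genes) and 9160 with none. Values were analysed as log2(value + 16) with R 4.3.3 and limma 3.58.1: 1 fit of 4 group means over 12 arrays, intensity trend in the variance prior, Benjamini-Hochberg adjustment over 44937 probe sets, threshold 0.05. The ranking that the methods name is unpublished, so limma stands in its place. An alternative, called the methods' t-test below, takes only their unpaired t-statistic, with Benjamini-Hochberg adjustment. It leaves out the fold change parts of that ranking and the permutations behind the study's false discovery rate. The steps were tested on simulated arrays.

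The members and lists were chosen with earlier results of these data known. Named were all members, the called genes of the wider list or, where fewer than 4 were called, the 4 with the smallest p, and the 3 genes most like each called member.

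The labels state that uninjected pools came from the same collection as the injected pool of their number, so numbers pair samples. Within a pair, the arrays' deviations from the 2 group means correlated at 0.083, 0.0308 and 0.00911 in the Oct4 and -0.0128, 0.0841 and 0.114 in the Ccna2 experiment. No source used here gives the days of collection, and p-values reflect the spread between pools alone, which may be technical.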

Additional observations from a re-analysis of the deposited data

How the results depend on the processing

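Precision is limited by having 3 arrays a group and by signal over background. Over 24 alternatives, Srpk2 in Ccna2-MO embryos was called in 22 and Srsf1 in 14, and no called member changed sign. With the pair as a block (replicate block), the 2 members called in Ccna2-MO embryos stayed at 2, the wider list went from 2 called to 1 (Luc7l3, without Hnrnpa2b1), and no other call on these lists changed. The causes of the changes below were not tested.

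The count of members called in Ccna2-MO embryos was 0 with only the 6 arrays of the comparison and with the methods' t-test, and 1 (Srpk2) without the intensity trend and with the mean of all probe sets. Without 1 array at a time it was 1 to 2. In Oct4-MO embryos it was 1 (Srsf1) with all 6 uninjected arrays as controls. That setting adds the controls of the other experiment, so its results here and below include the difference between the uninjected groups. For the wider list in Ccna2-MO embryos the count was 0 with only the 6 arrays, without the trend, with array weights and with the methods' t-test, 1 with 1 added before log2 (Luc7l3) and with the mean of probe sets (Scaf4), 4 in the brighter part of the array (Srsf11, Scaf4, Luc7l3 and Hnrnpa2b1), and 0 to 2 without 1 array at a time (Luc7l3 and Srsf11, not Hnrnpa2b1, without Ccna2-MO replicate 3). In Oct4-MO embryos it was 4 with all 6 uninjected arrays (Srsf10, Scaf4, Luc7l3 and Tnpo3), 3 with array weights (Srsf10, Scaf4 and Tnpo3) and 1 in the brighter part (Scaf4). Between the uninjected groups it was 1 with array weights and 1 with the mean of probe sets (Scaf4 in both).

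Signs changed only for log2 fold changes that were not called. With all 6 uninjected arrays, Clk1 in Oct4-MO embryos was -0.078, and in Ccna2-MO embryos Srsf2 was -0.008 and Srsf6 0.117. Under quantile normalization Srpk1 was 0.017 in Oct4-MO embryos and -0.03 between the uninjected groups. With array weights the difference between knockdowns for Clk1 was 0.077. With the mean of probe sets Srsf6 was 0.02 in Ccna2-MO embryos, and between the uninjected groups Srsf1 was -0.049, Srsf2 0.01 and Srpk2 0.034. Leaving out 1 array at a time in the Oct4-MO comparison gave -0.019 to 0.45 for Srsf3 and -0.072 to 0.472 for Clk1. In the Ccna2-MO comparison it gave -0.041 to 0.125 for Srsf2, -0.084 to 0.305 for Srsf3, -0.157 to 0.043 for Srsf4, -0.365 to 0.253 for Srsf6, -0.001 to 0.169 for Srpk1 and -0.07 to 0.366 for Clk1. For the difference between knockdowns it gave -0.347 to 0.122 for Srsf3, -0.177 to 0.027 for Srsf5 and -0.346 to 0.198 for Clk1. Between the uninjected groups it gave -0.157 to 0.014 for Srsf2, -0.072 to 0.034 for Srsf4 and -0.016 to 0.126 for Srpk1.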
